A study of Mus musculus with 26 samples.

Results

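Of 31414 peaks of histone H3 trimethylated at lysine 4 (H3K4me3) in Ebf1-/- progenitors, 695 (2.21%) were progenitor-only peaks at the ends of protein-coding genes. A progenitor peak was counted among them when it shared no base with any of the 48054 peaks of Early-B cells and lay within 1 kb of the start or the end coordinate of a protein-coding gene in mm10. The members were therefore chosen by the presence and absence of peaks, and that absence is a rule and not a result. At gene ends, 695 of 11155 progenitor peaks (6.23%) had no Early-B partner, against 7149 of all 31414 progenitor peaks (22.8%).

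The labels list 26 mouse samples over several assays, from cells without Ebf1, a transcription factor that commits progenitors to the B lineage, and from their progeny. The Early-B cells were Ebf1-/- progenitors carrying EBF1 on the retroviral vector MigR1-EBF1.ER, in which EBF1 is fused to a hormone-binding domain that 4-hydroxytamoxifen switches on. They were kept for 2 days on OP9 stromal cells with SCF, FLT3-L, IL-7 and 4-hydroxytamoxifen. The progenitors were Ebf1-/- cells without that vector, and the labels do not state their culture. Both groups thus share the Ebf1-/- background, and the vector, the drug and the days in culture cannot be told apart as differences between them. In each group, 2 chromatin samples were precipitated with an antibody to H3K4me3 and 2 samples of input DNA were sequenced, but each group has 1 peak list. No value below therefore has a replicate check, no test between the groups was possible, and the read depth behind the lists is unknown. In bulk chromatin, fewer cells with the mark and less mark per cell cannot be told apart.

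H3K4me3 marks the first nucleosomes of genes whose promoters are active or held ready, and it is laid down chiefly at promoters rich in CG dinucleotides (CpG islands), which recruit the enzymes that write it. In stem and progenitor cells the mark also sits, often weakly, at developmental regulators that are silent in those cells and carry the repressive mark H3K27me3 as well.

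The sequences before the start sites show what kind of DNA the strongest members cover. They are the 250 bases upstream of the start, 5′ to 3′ on the gene's strand, from RefSeq on GRCm38.p6, the assembly of mm10, with each CG in capitals. The first 6 belong to the strongest members that contain a matched start. The last pair, Txk and Cd300c, was chosen after the values were seen, because wide member peaks lay there over DNA with few CG dinucleotides.
Cited4: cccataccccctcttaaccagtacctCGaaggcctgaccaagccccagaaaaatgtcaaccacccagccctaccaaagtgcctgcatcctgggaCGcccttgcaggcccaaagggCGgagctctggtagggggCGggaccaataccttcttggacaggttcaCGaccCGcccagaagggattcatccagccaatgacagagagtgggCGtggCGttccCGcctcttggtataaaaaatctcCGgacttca
Ajap1: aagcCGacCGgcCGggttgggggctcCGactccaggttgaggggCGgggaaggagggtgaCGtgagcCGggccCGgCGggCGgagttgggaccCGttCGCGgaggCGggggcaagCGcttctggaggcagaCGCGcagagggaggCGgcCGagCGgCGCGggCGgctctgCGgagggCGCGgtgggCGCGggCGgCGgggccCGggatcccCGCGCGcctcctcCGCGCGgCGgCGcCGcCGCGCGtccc
Glp1r: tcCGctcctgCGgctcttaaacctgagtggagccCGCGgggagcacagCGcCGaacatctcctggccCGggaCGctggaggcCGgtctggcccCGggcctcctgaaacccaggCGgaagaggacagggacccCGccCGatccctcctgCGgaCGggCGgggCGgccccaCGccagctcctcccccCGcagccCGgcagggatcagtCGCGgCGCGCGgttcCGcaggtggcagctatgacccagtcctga
Egfem1: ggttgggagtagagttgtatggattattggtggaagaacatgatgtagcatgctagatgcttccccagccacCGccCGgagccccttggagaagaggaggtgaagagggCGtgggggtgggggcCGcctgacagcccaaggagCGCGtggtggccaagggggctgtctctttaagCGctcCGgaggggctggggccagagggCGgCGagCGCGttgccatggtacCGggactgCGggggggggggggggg
1500009L16Rik: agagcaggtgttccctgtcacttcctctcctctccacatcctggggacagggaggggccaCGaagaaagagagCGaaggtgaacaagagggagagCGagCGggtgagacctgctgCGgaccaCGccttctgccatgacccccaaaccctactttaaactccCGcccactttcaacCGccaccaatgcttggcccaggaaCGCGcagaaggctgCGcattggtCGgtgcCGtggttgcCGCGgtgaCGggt
Asphd2: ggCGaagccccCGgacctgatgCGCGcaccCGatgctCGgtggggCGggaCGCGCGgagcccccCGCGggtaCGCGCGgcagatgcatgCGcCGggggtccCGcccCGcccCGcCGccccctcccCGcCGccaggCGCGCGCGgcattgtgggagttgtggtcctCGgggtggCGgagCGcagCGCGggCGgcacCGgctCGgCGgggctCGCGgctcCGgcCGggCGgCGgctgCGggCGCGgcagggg
Txk: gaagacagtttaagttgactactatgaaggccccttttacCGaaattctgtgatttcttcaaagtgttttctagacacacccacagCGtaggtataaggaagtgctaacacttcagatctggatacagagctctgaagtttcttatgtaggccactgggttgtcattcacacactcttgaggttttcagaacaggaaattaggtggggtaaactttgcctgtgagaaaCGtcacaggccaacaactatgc
Cd300c: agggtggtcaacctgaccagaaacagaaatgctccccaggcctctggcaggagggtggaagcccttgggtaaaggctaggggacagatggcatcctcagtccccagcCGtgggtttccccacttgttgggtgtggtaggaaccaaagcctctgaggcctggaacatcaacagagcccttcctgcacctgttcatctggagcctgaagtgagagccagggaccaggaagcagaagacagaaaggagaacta
Ajap1 and Asphd2 had the densest CG content, with 43 and 45 CG dinucleotides in 250 bases. Their CpG ratios, the observed number of CG over the number expected from the base composition, were 1.097 and 1.05. Glp1r held 26, 1500009L16Rik 16, Egfem1 14 and Cited4 10, with ratios of 0.779, 0.675, 0.590 and 0.486. Txk held 3 and Cd300c 1, with ratios of 0.263 and 0.0501. The strongest members thus covered promoters of both kinds. The windows lie at chr4:153482831-153483080 (minus strand, Ajap1), chr5:112394774-112395023 (minus, Asphd2), chr17:30901617-30901866 (plus, Glp1r), chr10:83722615-83722864 (plus, 1500009L16Rik), chr3:29082281-29082530 (plus, Egfem1), chr4:120666313-120666562 (plus, Cited4), chr5:72752778-72753027 (minus, Txk) and chr11:114960508-114960757 (minus, Cd300c).

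Most members were weak and narrow peaks, as the authors' peak caller scored them. Their median width was 663 bp (quartiles 406 and 935 bp), their median −log10 p was 2.52 (quartiles 1.66 and 4.91) and their median fold enrichment over background was 2.01 (quartiles 1.72 and 2.61). Progenitor peaks at gene ends that met an Early-B peak, here called shared, numbered 10460, with a median width of 2686 bp, a −log10 p of 164.8 and an enrichment of 18.4-fold. The authors' q was at most 0.05 for 293 members (42.2%), against 95.5% of shared end peaks and 66.6% of all progenitor peaks. An enrichment of at least 3-fold was reached by 113 members (16.3%), against 91.9% of shared end peaks. These scores come from the list that chose the members and are given as a description of it.

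Members stood above other progenitor-only peaks in the same scores. The 3876 progenitor-only peaks inside coding genes and away from their ends had a median −log10 p of 1.80 and a fold of 1.77, with 18.6% at a q of at most 0.05. The 2578 outside coding genes had 1.86 and 1.80, with 21.1%. The 193 members that reached only a 3′ end were close to both of these classes, with 1.94 and 1.82, and 19.7%. The converse class in the other list, 1451 Early-B-only end peaks of 11975 (12.1%), had a median width of 1090 bp, a −log10 p of 4.13 and a fold of 2.41, with 61.3% at that q. Scores of the lists were made separately and do not measure change between them. The plot of score and width by class shows the members' curve left of the shared end peaks over nearly its whole length.

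**Figure D1:**
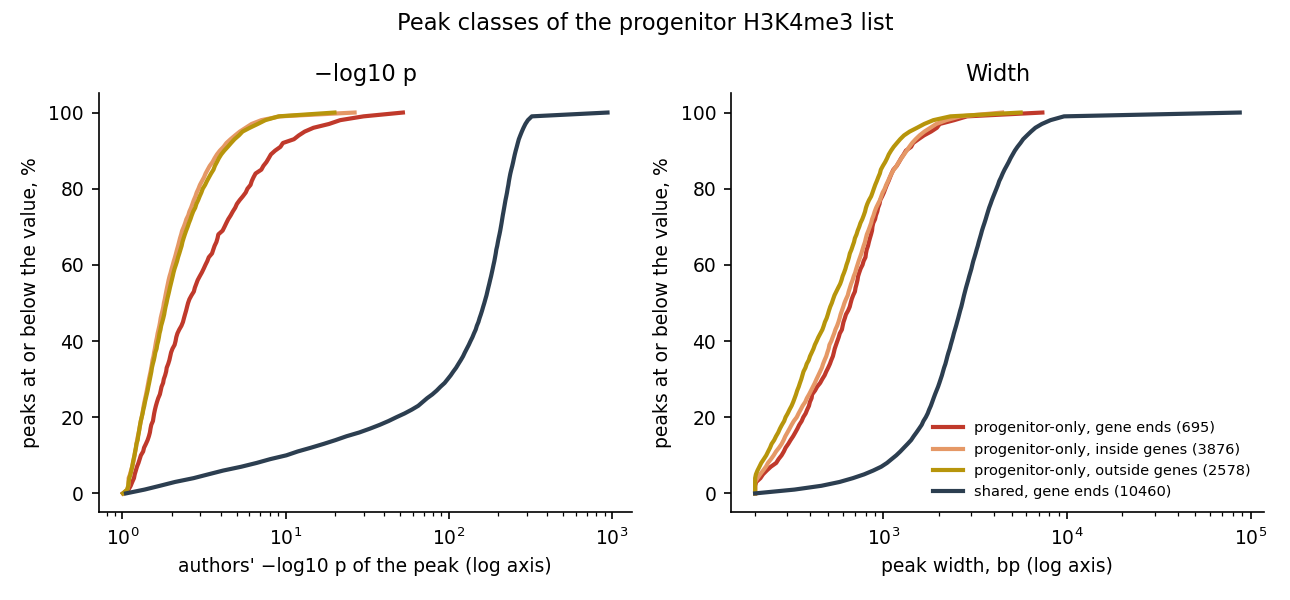
Cumulative share of peaks (%) by −log10 p (left, log axis) and width in bp (right, log axis) for members and the other classes of the progenitor list; each line is a class, with its number of peaks in the legend. Members have a median −log10 p of 2.52 and a width of 663 bp, against 164.8 and 2686 bp for shared end peaks.

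Since overlap was barred by the rule, each member had a gap to the nearest Early-B peak. It had a median of 9307 bp (quartiles 3633 and 23047 bp, range 34 to 398905 bp), and 27 members (3.88%) had an Early-B peak within 1 kb, 225 (32.4%) within 5 kb and 367 (52.8%) within 10 kb. The closest were at Cnrip1 with 34 bp, Chd1 with 42 bp, Podnl1 with 74 bp, Ctf1 with 328 bp and Hoatz with 344 bp, and their −log10 p lay between 1.099 and 6.18. Just on the other side of the overlap rule, the shared end peaks with the smallest overlap were at Tmtc1 with 46 bp, Clec5a with 83 bp, Rab24 and Slc22a18 with 91 bp each and Ubl7 with 95 bp. At the distance limit, the members farthest from a gene end were at Erg (1000 bp), Cep70 (995 bp), Capn9 (989 bp), Samd15 (987 bp) and Hmx3 (983 bp), with −log10 p from 1.23 to 1.98. The progenitor-only peaks just beyond 1 kb were at Klrk1 (1005 bp), Siglecf (1007 bp), Zcchc18 (1008 bp), Car15 (1011 bp) and Rab11fip3 (1012 bp), with −log10 p from 1.15 to 5.32. Peaks on either side of both limits were thus of like, mostly low, strength.

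The 25 strongest members, with −log10 p from 17.7 to 52.2 and enrichments from 4.77 to 9.29-fold, lay mainly at gene starts. Of these, 18 reached a start, 1 reached only a 3′ end and 6 had no matched strand. At 13 of the 25, no gene reached had an Early-B peak anywhere within it or the 1 kb around it. The strongest member covered all of Cited4 (chr4:120666402-120668340, 1939 bp), which encodes a transcriptional co-activator of the CITED family, with a pileup of 71.05, a −log10 p of 52.2 and a fold of 9.29. The nearest Early-B peak was 7852 bp away. Even this peak ranked at place 9840 by −log10 p in the progenitor list, and 108 members (15.5%) fell above the middle of that list.

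Among the strongest members were the following at genes with no Early-B peak. Ajap1, an adherens junction protein, had a peak of 2481 bp (chr4:153480799-153483279) with a −log10 p of 37.0, and no Early-B peak. Bik, a BH3-only inducer of apoptosis, had a peak at chr15:83526298-83527233 with a −log10 p of 30.8, and no Early-B peak. The secreted WNT antagonist Sfrp2 (21.4), the WNT receptor Fzd6 (18.4), the forkhead factor Foxq1 (19.0), the p53 target Perp (18.6), the sorting nexin Snx22 (23.0) and the orphan receptor Gpr135 (18.2) also lacked any Early-B peak in the gene. So did 1500009L16Rik (30.7), Nkapl (21.1), Arfgef3 (18.4) and Cd300c (17.7), a receptor of the CD300 family found on myeloid cells. Plin1, the lipid droplet coat protein of fat cells, carried its peak (19.1) at the 3′ end and likewise had no Early-B peak. The Gpr135 member also reaches L3hypdh, which has an Early-B peak. The count of members with none at any gene reached thus includes Cited4 and leaves out this member.

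In the other leading genes, an Early-B peak lay elsewhere in the gene, so that the progenitor-only mark concerned a place and not the whole gene. Glp1r, the receptor for the incretin GLP-1, had a member peak with a −log10 p of 33.6 (chr17:30901118-30902533), and its Early-B peak at a gene end had 4.13. Asphd2 had 30.2 in the member and 7.78 in an Early-B end peak. Egfem1 had 31.8 in the member and 4.65 in an Early-B peak inside the gene. Adap2, a GTPase-activating protein for ARF6, had 30.0 in the narrowest of the 25 peaks (574 bp), and 2.38 in its stronger Early-B peak. Proser2 (22.5) and Ptpn5 (17.8), a tyrosine phosphatase enriched in brain, had Early-B peaks inside the gene with 1.46 and 4.58. The Early-B peaks at these 6 genes were weak, with 7.78 as the highest −log10 p.

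Strong Early-B peaks elsewhere in the gene were found at Med12l, Lin7b and Kcng2. Med12l, a paralogue of a Mediator subunit, had a member with a −log10 p of 25.8, whereas its strongest other peaks had 60.8 in Early-B cells and 155.7 in progenitors. Lin7b, a PDZ scaffold protein of cell polarity, had 24.9 in the member, and other peaks of 27.2 in Early-B cells and 118.2 in progenitors. Kcng2, a modulatory potassium channel subunit on chromosome 18, had 23.5 in the member and 63.2 in an Early-B peak inside the gene. At Fgf8 and Txk the Early-B peak was weak and another progenitor peak was stronger than the member. Fgf8, a patterning ligand of the FGF family, had 25.8 in the member, 7.28 in an Early-B end peak and 37.8 in another progenitor peak. Txk, a TEC family kinase of T cells and NK cells, had a member of 4536 bp with 20.3, against 2.23 in its Early-B peak and 23.2 in another progenitor peak. The plot of the strongest members shows their own scores, in order, by the end of the gene reached.

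**Figure D2:**
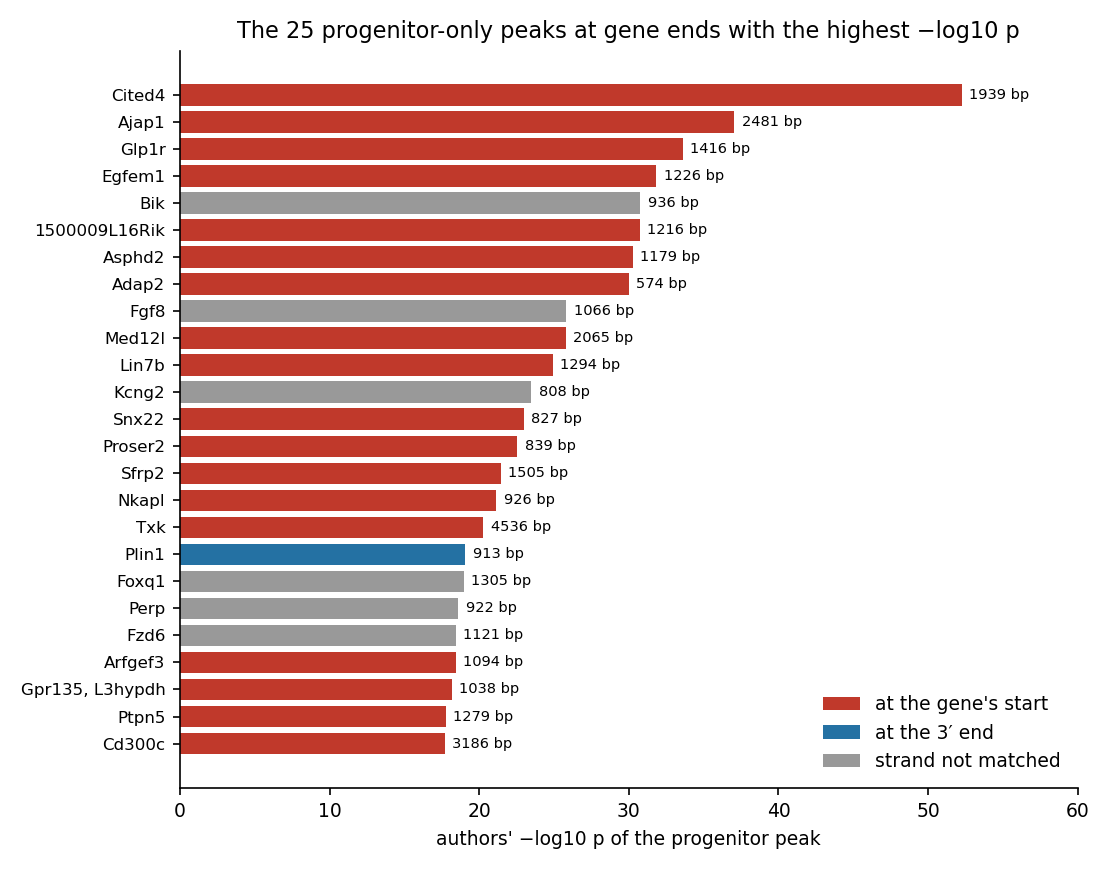
Authors' −log10 p (bar length) of the 25 strongest members, named by the gene reached, with the peak width in bp beside each bar and the colour giving the end of the gene. Values run from 17.7 at Cd300c to 52.2 at Cited4, and Plin1 is the member at a 3′ end.

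Of the 5 widest members, Txk and Cd300c were also among the 25 strongest. Txk had 4536 bp and a −log10 p of 20.3, Ccdc187 with 3922 bp and a −log10 p of 8.12, Card14 and the neighbouring Sgsh with 3411 bp and 2.44, and Cd300c with 3186 bp (chr11:114957935-114961120) and 17.7. Width and score were therefore far apart at Card14, where a long stretch had a fold of 1.96.

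Members were split between gene starts and 3′ ends. Among the 531 members whose gene had a matched strand, 338 lay within 1 kb of a start and 193 (36.3%) only within 1 kb of a 3′ end, and for 164 more no strand was matched. Shared end peaks reached only a 3′ end in 4.69% of 8530 with a strand. Early-B-only end peaks did so in 32.9% of 1109. A large part at 3′ ends was thus found in the private classes of both lists.

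Start and 3′ members differed in the scores that the caller gave them. The 338 start members had a median width of 693 bp, a −log10 p of 3.14 and a fold of 2.17, and 175 of them (51.8%) had a q of at most 0.05. The 193 members at 3′ ends had 571 bp, 1.94 and 1.82, with 38 (19.7%) at that q. A coding start lay inside 207 members (29.8%), against 73.3% of shared end peaks, and inside 32.0% of Early-B-only end peaks. Starts are known only for genes with a matched strand. None of the 164 members without one contained a known start, and they stay in these shares and those below. Of the 338 start members, 61.2% contained a start. The share with a start inside was 17.1% of the 258 members with a −log10 p under 2, 30.0% of the 267 from 2 to 5, 42.2% of the 116 from 5 to 10 and 63.0% of the 54 at 10 or more. The median width went up along the same 4 classes, from 478.5 to 1098.5 bp, so score and width were not separated here.

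Around the start sites, members covered the first bases of the gene more often than the bases upstream. Over 344 genes reached at the start, a member covered the start itself in 54.4%, the position 200 bp downstream in 59.9%, the position 1 kb downstream in 22.1% and 1 kb upstream in 8.43%. Shared peaks covered the start of 92.1% of 9172 genes and 1 kb downstream of 86.4%. Early-B-only peaks lay between, with 59.4% at the start and 43.5% at 1 kb downstream over 756 genes. The coverage profile has its maximum downstream of the start in each class.

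**Figure D3:**
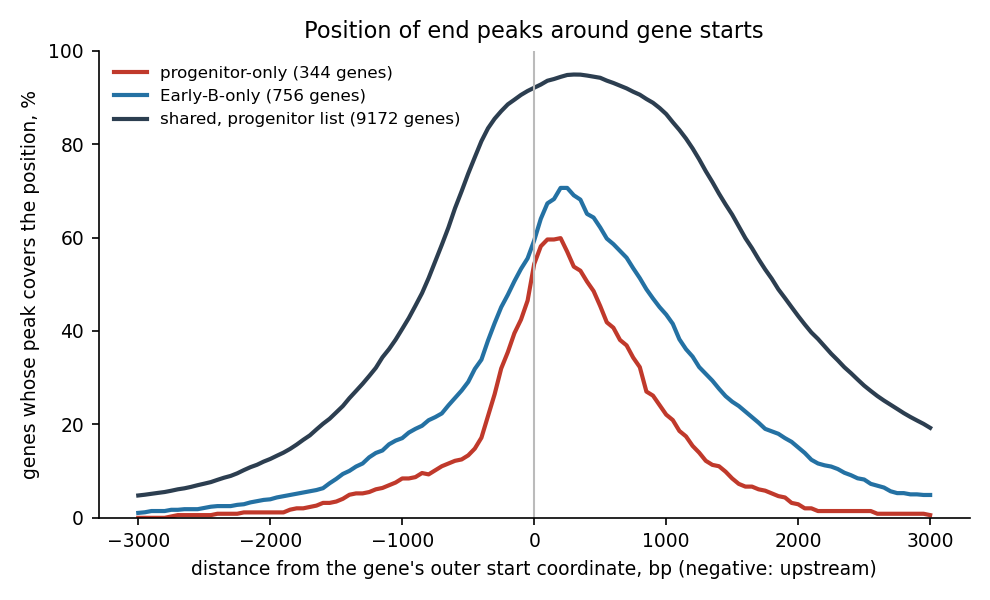
Share of genes (%) whose peak covers each position from 3000 bp upstream to 3000 bp downstream of the start (the gene's outer coordinate), for genes reached at the start by members, by Early-B-only end peaks and by shared end peaks. Members reach at most 59.9%, at 200 bp downstream of the start, and shared peaks 94.9% at 300 bp.

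The members reached 724 protein-coding genes, which are 5.92% of the 12222 genes with a progenitor end peak and 3.31% of all 21887. The gene was free of Early-B end peaks in 464 cases (64.1%). Over all 12222 genes with a progenitor end peak, 512 (4.19%) had no Early-B end peak. The 464 are part of these 512. The rule favours this contrast, since a member is an end peak that meets no Early-B peak, so it is not read as a result. A further split showed 260 genes (35.9%) with an Early-B end peak, 187 (25.8%) with an Early-B peak inside the gene only, and 277 (38.3%) with no Early-B peak within the gene or the 1 kb around it. In that last group, 258 (93.1%) had no other progenitor peak either, and 149 (53.8%) had a member with a q of at most 0.05. So the member was the sole peak of either list at those 258 genes. A gene with no Early-B peak can hardly hold a shared progenitor peak, so the choice of genes favours this share.

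The way members were chosen limits Early-B peaks near a start that a member reaches, since none may overlap the member. A member covered the start itself in 54.4% of the 344 genes reached there. An Early-B peak lay within 1 kb of the start in 10 of the 344 (2.91%). How far the choice sets this share was not tested. At a 3′ end the choice puts no such limit on the gene's start. Of the 206 genes reached at the 3′ end by a member that reaches no start, 132 (64.1%) had a shared progenitor peak at their start. Over all 17492 coding genes with a matched strand, 9172 had a shared progenitor peak at their start. The 64.1% is therefore not read as a trait of 3′ members. L3hypdh is not in the count of 206, since its member also reaches the start of Gpr135.

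A small number of genes carried more than 1 member, and some members reached neighbouring genes. There were 15 genes with 2 members, among them Ovol2, Adrb1, Sall3, Tgm2, Gdf7, Syp, Prss40, Kcnk4, Nkx1-2, Erg, 4931428F04Rik, Neurog1 and Tlx2. Sall3, Nkx1-2, Neurog1 and Tlx2 encode developmental transcription factors. At Ovol2, a zinc finger factor of epithelia, the stronger member had a −log10 p of 13.1, and the gene's Early-B peak had 24.8. Adrb1, the β1-adrenergic receptor, had 8.09 in its stronger member and no Early-B peak. Members that reached 2 genes numbered 44 (6.33%), and no member reached 3.

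Promoter DNA inside members was rich in CG. For 223 starts of 209 genes that lay inside a member, the 300 bases around the start (250 before and 50 after) had a median GC content of 65.0% and a median CpG ratio of 0.717 (quartiles 0.492 and 0.854). Of these, 142 (63.7%) had a ratio of at least 0.6. Starts inside Early-B-only end peaks, 507 of 469 genes, had 57.7% GC and a ratio of 0.471 (quartiles 0.267 and 0.721), with 37.9% at 0.6 or more. Shared starts had 62.0% GC and 0.800, with 79.4%, and all 21263 starts in the table had 56.3% and 0.567, with 47.7%. Starts in no peak of either list had 48.7% GC and a ratio of 0.220.

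The CG content of member promoters was somewhat lower in weaker peaks. Starts inside members with a q of at most 0.05 had a median CpG ratio of 0.720 over 137 starts, and those with a higher q had 0.702 over 86, with lower quartiles of 0.560 and 0.408. The share at a ratio of 0.6 or more was 67.2% at a q of at most 0.05 and 58.1% at a higher q. In Early-B-only end peaks the same split gave medians of 0.520 and 0.405, and shares of 40.3% and 31.7%. By their medians, members of either score were nearer to the 0.800 of shared starts than Early-B-only peaks of either score were.

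**Figure D4:**
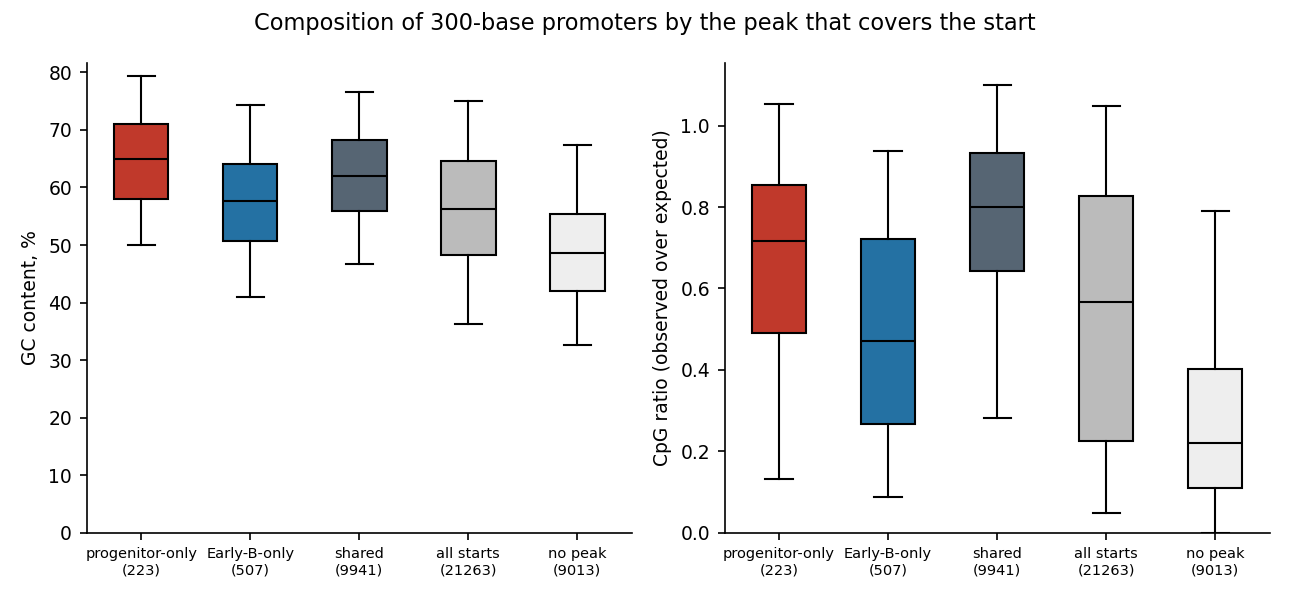
GC content in % (left) and CpG ratio (right) of the 300 bases around starts inside members, inside Early-B-only end peaks, inside shared end peaks, of all starts and of starts in no peak; boxes span the quartiles with the median as a line, whiskers the percentiles 5 and 95, and the number of starts stands under each box. The median CpG ratio is 0.717 for members, 0.471 for Early-B-only peaks and 0.800 for shared peaks.

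Short motifs were searched on both strands of the same 300 bases. The EBF1 palindrome, TCCC and GGGA with 2 bases of any kind between them, was in 2 of the 223 member starts (0.897%), at Hecw2 and Dpysl5. It was in 2.37% of Early-B-only starts, 0.915% of shared starts and 0.959% of all starts. The GC box GGGCGG, bound by SP factors, was in 68.6% of member starts, 68.4% of shared and 46.2% of all starts. The ETS core GGAAGT was in 16.1% of member starts, against 29.8% of shared and 24.8% of all starts, and CCAAT, bound by NF-Y, was in 25.1% against 38.6% and 38.2%. TATAAA was in 9.42% of member starts, against 5.98% of shared and 12.6% of all starts. The RUNX core TGTGGT was in 15.7% of member starts (15.0% of all), the GATA motif AGATAA in 8.07% (9.65% of all) and the E box CANNTG in 65.0% (69.0% of all). A match is a run of letters and not a bound site.

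Gene lists were read against the 5.92% of genes with a progenitor end peak that a member reached, and beside the 11.5% of 12969 genes with an Early-B end peak that an Early-B-only peak reached. Genes of haematopoietic stem cells and of other blood lineages were among those reached. The −log10 p beside a gene name is that of its member, and the gene can carry other peaks in either list. Of 25 stem and multipotent progenitor genes with a progenitor end peak, 4 (16%) had a member: Gata2, Lmo2, Hlf and Erg, all transcription regulators of stem cells. For the same list, 1 of 22 genes (4.55%) had an Early-B-only peak. Gata2 had a −log10 p of 8.41 at its start and an Early-B peak of 4.83 inside the gene. Hlf had 5.36 at its start and no Early-B peak. Lmo2 had 5.44 in the member, while its strongest other peaks had 135.3 in Early-B cells and 214.9 in progenitors, so the member there was a minor peak of a strongly marked gene. Erg had 2.59 in its stronger member and 27.5 in an Early-B peak inside the gene.

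The shares for lists of mature blood cells were above the 5.92% over all genes, from small numbers of genes. In the myeloid list 2 of 14 genes (14.3%) had one: Mpo, the myeloperoxidase of neutrophil granules, with a peak of 2679 bp and a −log10 p of 7.23 at its start and no Early-B peak, and Itgam, the integrin CD11b, with 4.73. Itgam also had an Early-B peak of 4.59 inside the gene and another progenitor peak of 5.66. No myeloid gene of 13 had an Early-B-only peak. In the dendritic cell list the share was 4 of 16 (25%), with Cd300c at 17.7, the transcription factor Zbtb46 at 3.84, the integrin Itgax at 1.98 and Siglech at 1.37. The corresponding Early-B-only share was 3 of 13 (23.1%). Zbtb46 had stronger other peaks in the gene, of 47.8 in Early-B cells and 82.1 in progenitors. The members at Itgax and Siglech had a q above 0.05, and these genes had no Early-B peak. The erythroid list had 2 of 11 (18.2%), both adult β-globin genes, with Hbb-bt at 7.29 and Hbb-bs at 3.73. The Hbb-bt peak covered the whole gene, the Hbb-bs peak lay inside its gene, 114 bp from the start, and neither gene had an Early-B peak. These β-globin genes are near-identical copies, and reads could be split between them.

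Lymphoid lists had these shares. In the T lineage and Notch list 2 of 23 genes (8.70%) had a member, and 2 of 24 (8.33%) had an Early-B-only peak. In the NK and innate lymphoid list there were 2 of 17 (11.8%), with the IL-33 receptor Il1rl1 at 3.63 and Klrd1 at 1.87. Both members were minor peaks of their gene. Il1rl1 had an Early-B end peak of 11.2 and another progenitor peak of 150.2. Klrd1 had 27.7 in an Early-B peak inside the gene and 11.8 in another progenitor peak. Il1rl1 was also the member among 2 mast cell, basophil and eosinophil genes with a progenitor end peak (50%). Of 23 B lineage genes, 1 (4.35%) had a member: Irf4, at its 3′ end, with a −log10 p of 1.20 beside an Early-B end peak of 48.4. An Early-B-only peak was found at 10 of 35 B lineage genes (28.6%). Of 16 BCL2 family genes, 3 (18.8%) had a member, namely the death inducers Bik at 30.8 and Hrk at 7.69, and Bcl2a1b, one of a group of similar copies, at 2.18. Bik had no Early-B peak. Hrk had an Early-B peak of 8.16 inside the gene and another progenitor peak of 26.5, and Bcl2a1b had an Early-B peak of 2.29.

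Genes of neurons, epithelia and the embryo made up several of the lists with large shares of members, and their Early-B-only shares are given beside them. Glutamate and GABA receptor genes had 3 of 8 (37.5%), with Grm4 at 11.9, Grm8 at 9.67 and Grin1 at 1.93, and an Early-B-only share of 1 of 8 (12.5%). Potassium channel genes had 9 of 26 (34.6%), led by Kcng2 at 23.5, Kcnj4 at 10.4, Kcnj11 at 9.56 and Kcnj10 at 7.09. Kcnj10 also had an Early-B end peak of 125.5. Kcnj4 had an Early-B peak of 4.44 inside the gene, and Kcnj11 had no Early-B peak. The Early-B-only share of that list was 11 of 32 (34.4%). Cadherins and protocadherins had 5 of 16 (31.3%), among them Cdh1, the E-cadherin of epithelia, at 15.7, and Pcdhga5, Pcdh17 and Pcdhga4 at 8.09, 5.69 and 4.21. Their Early-B-only share was 15 of 26 (57.7%). Calcium and sodium channel genes had no member among 9 with a progenitor end peak, against an Early-B-only peak at 10 of 19.

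Developmental regulators and signals followed. Neural and endodermal regulators had 4 of 20 (20%), with Lhx1 at 3.38, En1 at 3.23, Foxa1 at 1.92 and Neurog1 at 1.71, and an Early-B-only share of 5 of 18 (27.8%). Foxa1 had an Early-B peak of 7.34 in the gene, and Lhx1, En1 and Neurog1 had none. Ligands and receptors of the WNT, hedgehog, FGF, BMP and TGF-β pathways had 8 of 45 (17.8%), led by Fgf8 at 25.8, Fzd6 at 18.4, Gdf7 at 6.32 and Fzd3 at 6.09, and an Early-B-only share of 8 of 49 (16.3%). Hox genes had 2 of 15 (13.3%), Hoxc6 at 12.6 and Hoxd8 at 3.90, neither with an Early-B peak, and an Early-B-only share of 11 of 23 (47.8%). Guidance genes had 4 of 36 (11.1%), with the slit ligand Slit1 at 6.61 and the ephrin ligand Efna2 at 3.76, and an Early-B-only share of 5 of 39 (12.8%). The strongest Early-B peak in the gene had 75.4 at Slit1 and 8.54 at Efna2. Adhesion and orphan G protein receptors had 7 of 44 (15.9%), with Gpr135 at 18.2, Gpr62 at 9.45, Adgrl2 at 4.75 and Gpr34 at 4.08, and an Early-B-only share of 13 of 50 (26%). Early-B peaks in the gene had 21.2 at Adgrl2 and 5.79 at Gpr34, and Gpr135 and Gpr62 had none.

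The remaining lists had these counts. Solute carriers had 14 of 209 (6.70%), led by the amino acid transporter Slc7a8 at 14.0, and cytokines, chemokines and their receptors had 7 of 89 (7.87%), led by Tnfrsf25 at 3.78. Zinc finger genes named Zfp had 9 of 311 (2.89%), led by Zfp423 at 12.5 at its 3′ end, and histone genes had 1 of 64 (1.56%), H2bc4 at 1.43. MHC genes had 1 of 19 (5.26%), H2-Eb2 at 1.98, and collagen genes 1 of 8 (12.5%), Col14a1 at 1.43. Stromal and mesenchymal genes had 1 of 10 (10%), Fap at 2.87, whereas 11 of 23 (47.8%) had an Early-B-only peak. None of 20 interferon-induced genes, 15 housekeeping genes or the 1 keratin gene with a progenitor end peak was reached. Olfactory and vomeronasal receptor genes had a member at 7 of the 21 with a progenitor end peak (33.3%), of 1465 in all, and their members were weak, with a median −log10 p of 1.57 and at most 5.51, at Olfr66. Their Early-B-only share was 26 of 40 (65%). The plot of the lists shows these shares beside that over all genes.

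**Figure D5:**
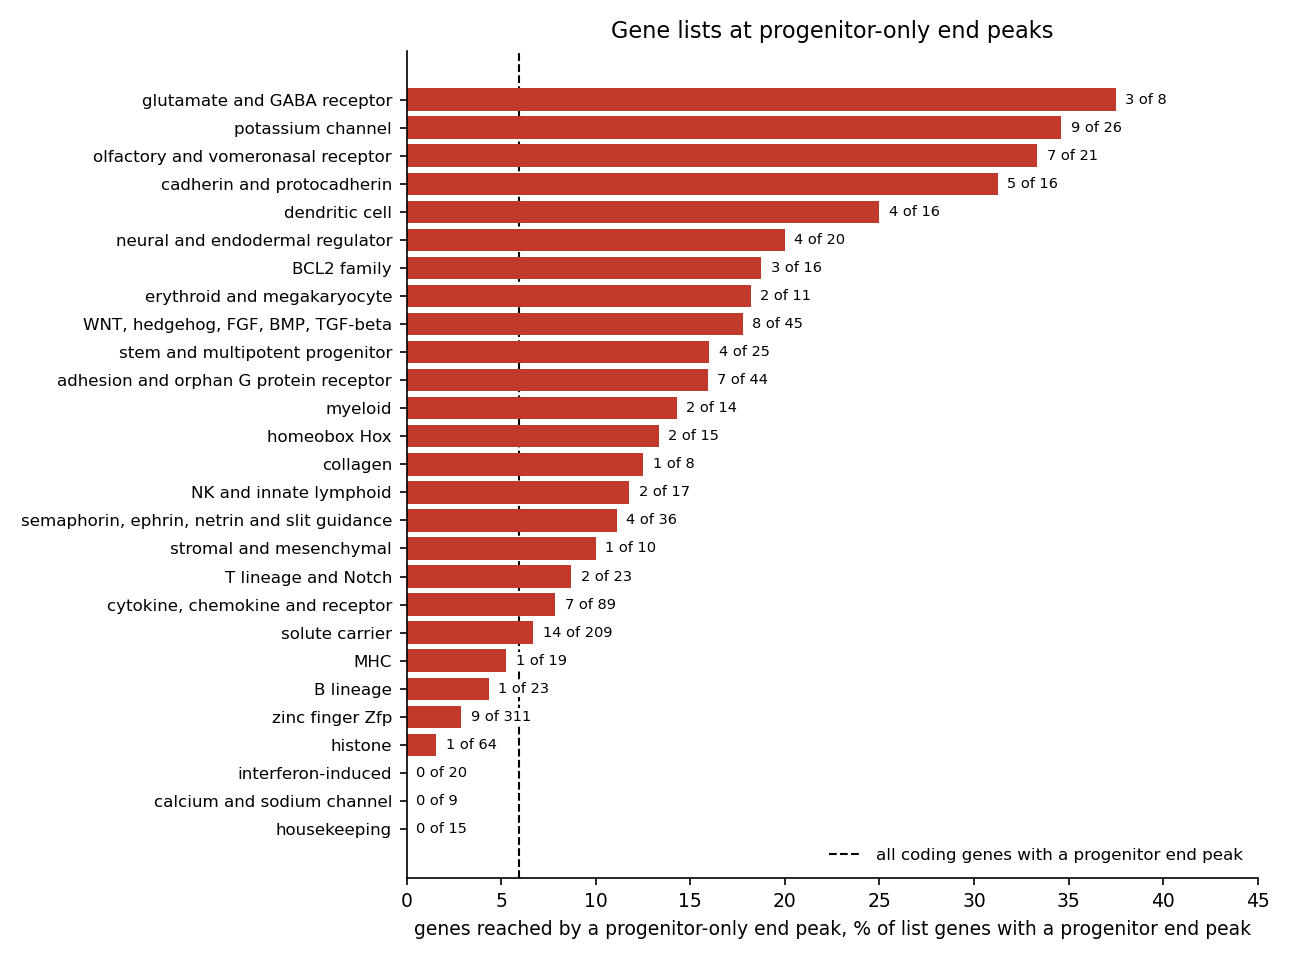
Share of genes (%) reached by a member among genes with a progenitor end peak, for the lists with at least 8 such genes, with the counts beside the bars. The dashed line is the share over all coding genes with a progenitor end peak, 5.92%, and the lists drawn range from 0 of 20 to 3 of 8.

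The markers that check the labels touched the members little. Of 21 marker genes, Mpo was the member. Kit, Cd34, Meis1 and Flt3 had end peaks in both lists, with −log10 p from 10.8 to 46.7 in Early-B cells and from 97.3 to 198 in progenitors. In the B lineage, Blnk and Pax5 had end peaks in the Early-B list and none in the progenitor list. Cd79a had 88.9 in Early-B cells and 128.7 in progenitors, and Cd79b 39.7 in Early-B cells and 4.24 in progenitors. Of the stromal genes, Sparc (35.0) and Postn (12.4) had end peaks in the Early-B list alone. Col1a1, Col1a2 and Pdgfrb had them in both, from 6.24 to 8.66 in Early-B cells and from 1.51 to 15.5 in progenitors. The part of OP9 stromal chromatin in the Early-B list was not tested. A missing Early-B peak is the rule for members, and any bearing of stromal chromatin on it was not tested either.

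Members were found on every chromosome with peaks, in differing shares of the end peaks there. The share was largest on chromosome 12, with 36 of 395 end peaks (9.11%), and on chromosome 7, with 77 of 855 (9.01%). It was smallest on chromosome 17, with 21 of 557 (3.77%). On chromosome X it was 25 of 313 (7.99%). Genes reached by members were of common length, with a median span of 21204.5 bp, against 21282.5 bp for genes with a progenitor end peak and 17169 bp for all coding genes.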

How the data were processed

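H3K4me3 peak lists of Early-B cells and of Ebf1-/- progenitors were used, 1 per group, each matched to its group by the list's name and the sample titles. The labels' other assays were not used here. Per the submitters' processing notes, Bowtie 1.1.2 and MACS 1.4.3 were named, with the builds mm10 and GRCh38 and no role for each. The columns are those of a later MACS run for broad peaks, so the version is unsure. Pooling of replicates, use of the input and the settings were not given in the sources used here.

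Pileup is the authors' coverage signal of a peak, and fold enrichment their deposited ratio over a background. The columns read as −log10 p and as a score, the −log10 q, are the authors' deposited values, identified from their values and order because the headers hold damaged names for them. The authors kept weak peaks: the lowest −log10 p of the progenitor list is 1.01, and 33.4% of its peaks have a q above 0.05. Scores describe and rank peaks within their list. No read counts were given, so depth is unknown.

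Peaks were shared from an overlap of 1 bp. Gene ends came from a RefSeq table of GRCm38.p6, which gives no strand. Strand, start sites and promoters came from a RefSeq promoter table that matched 17492 of 21887 coding genes, none of them on chromosome 18, so 164 members have no known end. Neither table gave exons. Overlaps were computed in Python 3.11.15 with numpy 2.4.6 and pandas 2.3.3, with figures from matplotlib 3.10.9 and intervals from scipy 1.17.1. bedtools 2.31.1 gave the same 7149 progenitor-only peaks. On simulated data, 600 of 600 peaks fell in their simulated class.

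The members and lists were chosen with earlier results of these data known. Named were genes at the 25 strongest and 5 widest members, up to 4 genes per list by −log10 p, and 5 at each limit. Other named genes, such as those with 2 members, were chosen after their values were seen. Some genes that these rules name are not reported here. Of 29 gene lists, 4 entries matched no coding gene. Alternatives changed the window, the thresholds, the list lengths and the overlap rule.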

Additional observations from a re-analysis of the deposited data

How the results depend on the processing

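The value of each result was computed again under 12 alternatives, giving 72 values, of which 33 stayed close to the reported one and 39 moved. Close means within 1.5 times for a count, and within the 95% interval of the share (exact binomial, 5.79% to 6.69%) or of the median (order statistics: fold 1.97 to 2.08, width 616 to 703 bp, CpG ratio 0.681 to 0.754). These intervals cover counting over peaks and not replicates.

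The number of members was 695 as reported. It became 1063 with a window of 2.5 kb, 1102 with Early-B peaks kept to the length of the progenitor list, 293 with progenitor peaks at q of at most 0.05 and 236 at 0.01. With the same threshold in both lists it stayed within 1.5 times, at 570, 651 and 617 for q of at most 0.01, −log10 p of at least 10 and fold of at least 3. These are mostly other peaks, since 236, 54 and 113 of the reported members met those thresholds. The rest overlap an Early-B peak that fell below the threshold. The like counts thus do not show that the set of members is stable. Genes without an Early-B end peak, 464 as reported, became 801 with equal list lengths, 239 and 199 at the q thresholds of the progenitor list, and 277 when no Early-B peak was allowed in the gene or the 1 kb around it. This last alternative, and members that contain a start (207), were added after seeing the data. Members at a start, 338 as reported, became 570 with equal lengths, 175 and 142 at the q thresholds, and 544 when an overlap of at least 50% was needed to share.

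The share of end peaks that are members, 6.23% as reported, was 5.02% with a window of 500 bp, 8.49% with 2.5 kb, 9.88% with equal lengths and 9.16% with the stricter overlap. It was 2.85% and 2.33% at the q thresholds of the progenitor list, and 5.64% at q of at most 0.01 and 6.87% for −log10 p from 10 upward, set on both lists. The median fold, 2.01 as reported, was 2.10 at 500 bp, 1.94 at 2.5 kb, 2.80 and 2.95 at the q thresholds, 3.34, 5.39 and 4.37 with the 3 thresholds on both lists, 2.20 with equal lengths and 2.31 with the stricter overlap. The median width, 663 bp as reported, was 705 bp at 500 bp, 839 and 865 bp at the q thresholds, 1049.5, 1375 and 1236 bp with the 3 thresholds on both lists, 787 bp with equal lengths and 848.5 bp with the stricter overlap. The median CpG ratio, 0.717 as reported, was 0.677 with equal lengths. Thresholds raise the median fold and width by their construction, and the cause of the other shifts was not tested.

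No paired analysis was possible because each group has 1 peak list. For the same reason no replicate was left out. Depth, pooling and the stage of the progenitors' culture were not known, and their part in the absence of Early-B peaks was not tested. The q was at most 0.05 in 42.2% of the members, and the others are at the weak end of what the caller reported.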
